A study of Rattus norvegicus with 111 samples.

Results

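Liver gene expression was compared between rat dams given PFO5DoA at 0.3 mg/kg/d and dams given vehicle alone, in the maternal liver and in the liver of their fetuses. These 16 libraries, of 111 in the series, were chosen by labelled chemical and dose, and the life stage of each library was assigned from its measured values. They came from 3 dosed dams (2268, 2269 and 2270) and 5 control dams (2263, 2264, 2265, 2278 and 2280), with 1 maternal and 1 fetal library per dam. PFO5DoA is a perfluoroalkyl ether carboxylic acid, and the series set its effects on dams and fetuses beside those of the related acid PFO4DA over a range of doses.

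All animals were time-mated Sprague-Dawley rats of the Crl:CD(SD) stock, 11 to 12 weeks old when bought, without any genetic modification named in the labels. The labelled dose interval ran from gestational day 18 to 22, and the vehicle of both groups was 0.5% Tween-80. Livers were taken 2 to 4 hours after the last oral dose. TempO-Seq was run on RNA of whole liver pieces. In this targeted assay 2 probes that bind side by side on an RNA are joined by a ligase, and the joined probes are read by sequencing. How many fetuses gave the tissue of a fetal library is not given in the sources used here. A liver piece holds several cell types, so fewer cells of a type and less RNA per cell cannot be told apart in these values.

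Perfluoroalkyl acids bind blood proteins and collect in the liver, and many of them activate the nuclear receptor PPARα, which in rodents raises genes of fatty acid oxidation. They can cross the placenta, so that the fetal liver is exposed through the dam. Late in gestation the fetal liver is still a site of blood formation and is only beginning to take on the metabolic functions of the adult organ.

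The deposited table lists genes by Ensembl identifier, and the files do not pair these with gene names. Of the 20311 identifiers, 0 could be linked to a name through the reference at hand, so the markers of fetal and adult liver, of other cell types and of PPARα activity could not be looked up, and the labelled tissue and stages could not be checked against markers. Identifiers are given below for the 2 largest rises and for 2 genes with lower values, and the other genes are described by number and range.

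The column names give the dam but not the life stage. Of a dam's 2 libraries, the one whose profile correlated better with the library of dam 2286, a dam at 30 mg/kg/d with a maternal library only, was taken as maternal. In the 8 dams at 0 and 0.3 mg/kg/d, Pearson's r of log2(CPM + 1) with that library was 0.943 to 0.976 for the libraries taken as maternal and 0.872 to 0.901 for those taken as fetal. Within each dam the difference was 0.057 to 0.101. Since these values chose the stages, differences in level between the livers are given as description and were not tested.

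Total counts ran from 7740151 to 14074000 per library. The maternal library of control dam 2263 stood apart, with a median r of 0.932 with the other maternal libraries, where the remaining 7 had 0.958 to 0.971. In the fetal liver the median r was 0.950 to 0.969. All dosed dams and 3 of the controls carry numbers from 2263 to 2277, and the 2 remaining controls (2278 and 2280) fall in a second run of numbers. The labels do not call these runs a batch, and values within the first run stand beside the results below.

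In fetal liver, 13 genes rose at 0.3 mg/kg/d and none fell, of 11509 genes tested (edgeR's quasi-likelihood test, Benjamini-Hochberg adjusted p under 0.05). That is 0.113% of the genes tested for rises and 0% for falls. In maternal liver, 0 of 10615 genes passed the same test in either direction, 0% for rises and 0% for falls, with a smallest adjusted p of 0.373 from edgeR. The comparison asked which liver genes respond in dam and fetus at this dose, the lowest one with at least 3 dams. The dams are the replicates. The p-values set each difference against the spread between dams, which was estimated over all doses in the fit.

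At an unadjusted p under 0.05, edgeR's test gave 398 fetal genes, 195 higher and 203 lower, which is 3.46% of those tested. The maternal count was 562, with 230 higher and 332 lower, or 5.29%. With DESeq2 in place of edgeR, 18 fetal genes rose, all 13 among them, and 4 maternal genes rose, 3 of them among the 13. DESeq2 adjusted over 11497 fetal and 7732 maternal genes, fewer than edgeR in both livers. Neither tool called a lower gene in either liver. All 3 dosed libraries lay above all 5 controls for 186 fetal genes (1.62%) and below them for 88 (0.765%), and for 199 maternal genes above (1.87%) and 176 below (1.66%). The median log2 fold change over all genes tested was -0.02 in fetal and -0.03 in maternal liver.

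**Figure D1:**
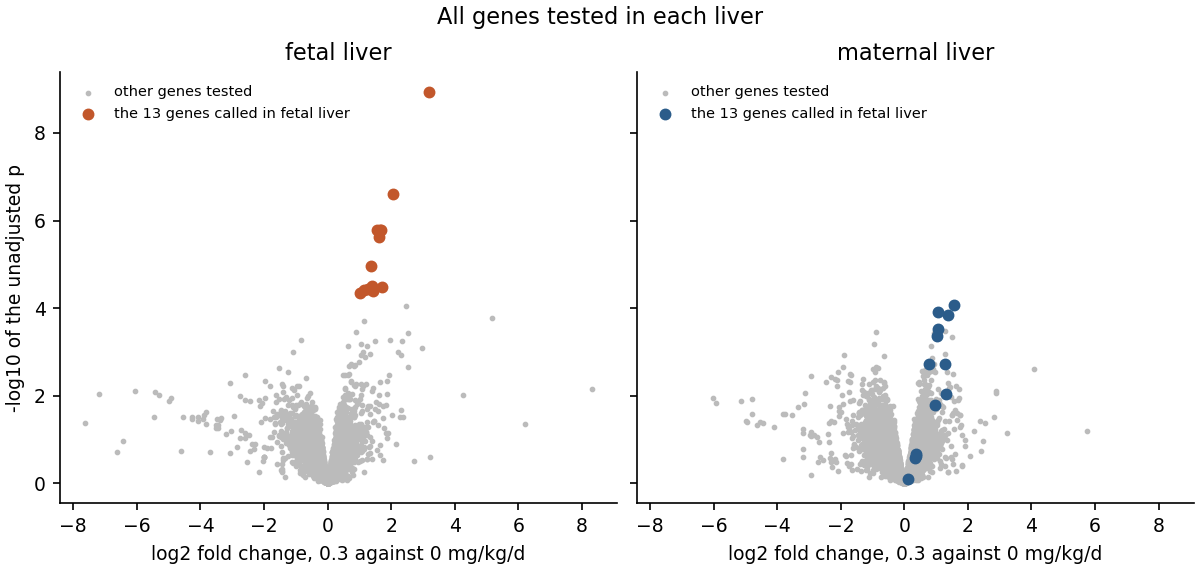
Log2 fold change at 0.3 against 0 mg/kg/d (horizontal axis) and −log10 of the unadjusted edgeR p (vertical axis) for every gene tested, with fetal and maternal liver in separate panels. Each point is 1 gene, and the coloured points are the 13 genes that passed in fetal liver, which lie right of 0 in both panels and passed in fetal liver alone.

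The fetal count depended on which dams were included. It was 7 without control dam 2265 and 6 without any 1 of dosed dams 2269 and 2270 and control dams 2278 and 2280, and 9 or more without any of the remaining 3 dams. Only rises were called in each of these fits. Within the first run of dam numbers (3 dosed and 3 control dams), 4 fetal genes passed, 3 of them among the 13, and 0 maternal genes. In that subset the median log2 fold change of the 13 genes was 1.41 in fetal and 1.00 in maternal liver. Without dam 2265, 1 maternal gene passed, which is among the 13, and without dam 2263, whose maternal library stood apart, 0 did.

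The 13 fetal rises were moderate to large. Their log2 fold changes ran from 1.03 to 3.20 with a median of 1.54, so that all 13 were at least 2-fold and 2 were at least 4-fold. Adjusted p values from edgeR lay between 1.33e-05 and 0.0406. Control means ranged from 2.02 to 121 CPM (counts scaled to a common library size with edgeR's trimmed mean of M values, TMM) and means at 0.3 mg/kg/d from 5.41 to 328 CPM. In all 13 the dosed fetal libraries lay above every control library, which their selection makes likely.

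For 3 of the 13 genes the counts kept nearly 1 fixed ratio over 49 libraries of the PFO5DoA table. The ratios of the 3 pairs stayed within 0.944 to 1.02, 0.0900 to 0.0976 and 0.0885 to 0.0980, a pattern that near-identical gene copies sharing reads also give. Their values are therefore uncertain as those of single genes, and the source of the shared pattern was not tested. Their fetal log2 fold changes were 1.61 to 1.69 and their maternal ones 0.35 to 0.38. Counted as 1 gene they leave 11 separate signals, and with their counts summed 11 of 11507 fetal genes passed edgeR's test. Such near-copies were found for 65 of the 7299 genes with enough counts to look for them.

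The largest rise in fetal liver was that of ENSRNOG00000055221. Its fetal level was 6.71, 15, 6.42, 9.67 and 5.55 CPM in control dams 2263, 2264, 2265, 2278 and 2280, and 35.0, 106 and 99.5 CPM in dosed dams 2268, 2269 and 2270. Every dosed library lay above every control, with dam 2268 the lowest of the 3. The mean went from 8.67 ± 3.86 CPM (SD, n = 5) to 80.0 ± 39.1 CPM (SD, n = 3). EdgeR put the log2 fold change at 3.20 (standard error 0.32) and the adjusted p at 1.33e-05.

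In maternal liver ENSRNOG00000055221 was low in every library. It measured 0.984, 1.72, 1.83, 2.02 and 1.77 CPM in the same controls, from 11 to 19 counts each, and 1.59, 7.86 and 3.09 CPM in dams 2268, 2269 and 2270. Dam 2268 lay within the control range and the other 2 dosed dams above it, so the groups overlapped. The maternal means were 1.66 ± 0.396 CPM (SD, n = 5) and 4.18 ± 3.27 CPM (SD, n = 3). The maternal log2 fold change was 1.32 (standard error 0.46, 95% interval 0.36 to 2.29), and it did not pass edgeR's test (adjusted p = 0.894). Without dam 2269, the highest, the maternal log2 fold change was 0.50.

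**Figure D2:**
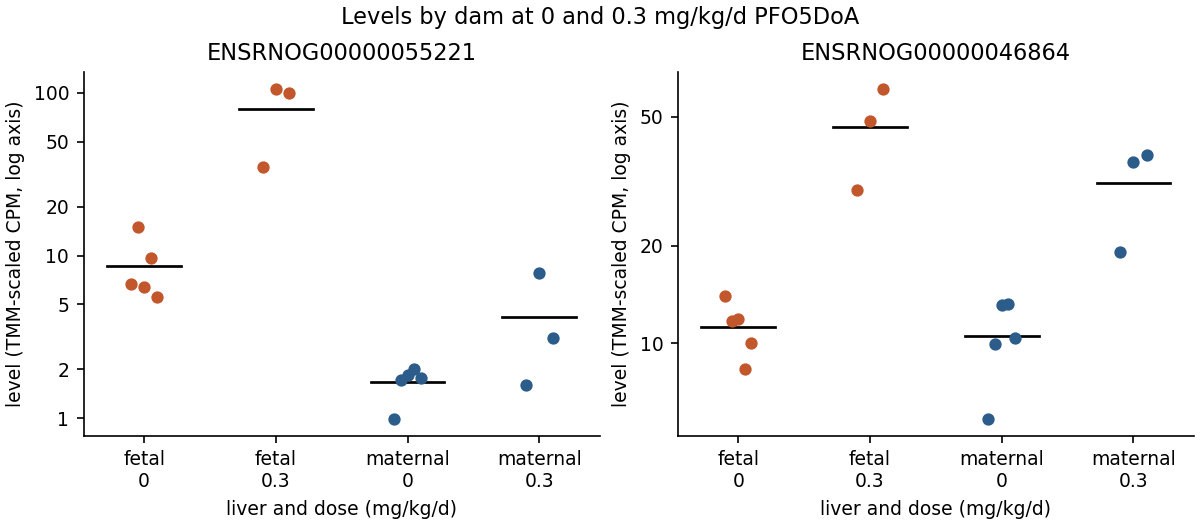
Levels of ENSRNOG00000055221 and ENSRNOG00000046864 in TMM-scaled CPM on a log axis, 1 point per dam, for fetal and maternal liver at 0 (n = 5) and 0.3 mg/kg/d (n = 3), with the group mean as a line. For ENSRNOG00000055221 the fetal points at 0.3 mg/kg/d sit between 35.0 and 106, above the controls at 5.55 to 15, while the lowest maternal point at 0.3 mg/kg/d lies among the maternal controls.

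ENSRNOG00000046864 had the next largest fetal rise, with levels at 0 mg/kg/d that were alike in both livers. In fetal liver it measured 14.0, 11.7, 11.9, 8.30 and 10.0 CPM in control dams 2263, 2264, 2265, 2278 and 2280, and 29.8, 48.6 and 61.1 CPM in dams 2268, 2269 and 2270. The mean rose from 11.2 ± 2.16 CPM (SD, n = 5) to 46.5 ± 15.7 CPM (SD, n = 3), a log2 fold change of 2.05 (standard error 0.28, edgeR adjusted p = 0.00143). In maternal liver the controls, in the same order, had 5.81, 9.94, 13.1, 13.2 and 10.4 CPM and the dosed dams 19.1, 36.2 and 38.1 CPM. The maternal groups did not overlap either, and the means were 10.5 ± 3.02 CPM (SD, n = 5) and 31.1 ± 10.4 CPM (SD, n = 3). Its maternal log2 fold change of 1.57 (standard error 0.33, 95% interval 0.89 to 2.25) did not pass edgeR's test over all genes (adjusted p = 0.373). The gene passed in maternal liver with DESeq2, which adjusted over 7732 genes (adjusted p = 0.027).

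Both genes kept similar fetal values within the first run of dam numbers but did not pass there. ENSRNOG00000055221 had a log2 fold change of 3.08 (edgeR, adjusted p = 0.265) and ENSRNOG00000046864 one of 1.88 (edgeR, adjusted p = 0.0535). That fit had 3 dams in each group and no other doses to estimate the spread from. Both passed in fetal liver without each of the 8 dams in turn.

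All 13 genes were tested in maternal liver too, and none passed there with edgeR. Their maternal log2 fold changes were all above 0, from 0.11 to 1.57, with a median of 1.04 against -0.03 over all maternal genes. Without dam 2263, without dam 2268 or with dam 2279 kept, 12 of the 13 were above 0, and the median with 1 dam left out ran from 0.72 (without dosed dam 2269) to 1.20 (without dosed dam 2268). It was 0.75 without dosed dam 2270 and 0.88 without control dam 2263. At an unadjusted p under 0.05 edgeR's test gave 9 of the 13, beside 5.29% of all maternal genes. For 5 of the 13 the dosed maternal libraries lay above every control, beside 1.87% of all genes tested. Since the fetal and maternal libraries come from the same dams, the livers are not separate samples of animals.

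The maternal intervals were wide for several of the genes. The 95% interval of the maternal log2 fold change reached the fetal value for 7 of the 13 and excluded 0 for 9. Among the 5 maternal genes of lowest p, 4 were among the 13 fetal rises. The log2 fold changes of those 5 were 0.99 to 1.57, their adjusted p from edgeR 0.373 to 0.483, and in all 5 the dosed maternal libraries lay above every control. The remaining gene of the 5 had a maternal log2 fold change of 0.99 and a fetal one of 0.65 (edgeR, adjusted p = 0.336 in fetal liver).

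**Figure D3:**
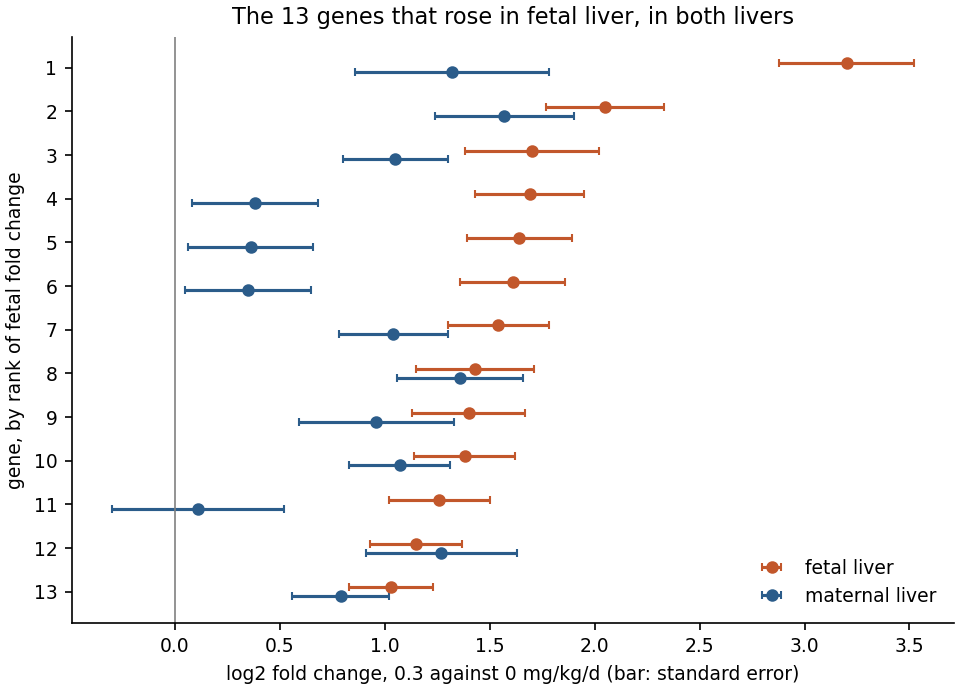
Log2 fold change at 0.3 against 0 mg/kg/d (horizontal axis, bars are the standard error) of the 13 genes that rose in fetal liver, ranked by fetal fold change on the vertical axis, with fetal and maternal liver side by side. Fetal values span 1.03 to 3.20 and maternal values 0.11 to 1.57, and the largest gap is that of the top gene, ENSRNOG00000055221.

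The difference between the livers was tested directly as the maternal minus the fetal log2 fold change, with the dam as a block. With edgeR, 0 of 11968 genes passed, 0% in either direction, and 365 had an unadjusted p under 0.05. DESeq2 called 1 gene and edgeR without a filter on low counts called 44 of 19840, 14 higher and 30 lower in maternal liver. For the 13 fetal rises the difference ran from -2.06 to 0.39. It was below 0 for 12 of them, beside 53.1% of all genes tested, and had an unadjusted p under 0.05 for 5, beside 3.05%, with adjusted p values from 0.347 to 1.00 in edgeR's test. The 3 near-copies described above count separately here, within the 12 as well as within the 5. The 13 genes were selected for a rise in fetal liver, which by itself favours differences below 0, so these counts are description only. These tests rest on the stages assigned from the values.

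ENSRNOG00000055221 had the lowest difference of the 13, -2.06 (standard error 0.41, 95% interval -2.90 to -1.23). It did not pass edgeR's test over all genes (p = 2.90e-05, adjusted p = 0.347). Of 13 alternatives, 2 made the call, DESeq2 (adjusted p = 0.00939) and edgeR without the filter on low counts (adjusted p = 2.30e-04), and 11 did not. Among those 11 edgeR gave -1.89 without the dam block (adjusted p = 1), -2.03 with only 0.3 and 0 mg/kg/d (adjusted p = 1) and -2.07 with RLE scaling (adjusted p = 0.368). For ENSRNOG00000046864 the difference was -0.47 (standard error 0.34, 95% interval -1.18 to 0.24, edgeR adjusted p = 1.00), an interval that spans equal rises as well as a smaller maternal rise.

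Control levels of the 13 genes did not all lie higher in 1 liver, where each liver was scaled on its own libraries. The mean in fetal controls exceeded that in maternal controls for 7 of the 13, and the fetal to maternal ratio of control means ran from 0.720 to 5.84. The 3 near-copies count separately here, and all of them had lower means in fetal than in maternal controls. The share over all genes tested was not computed, so the count is description only. For ENSRNOG00000055221 the control means were 8.67 CPM in fetal and 1.66 CPM in maternal liver, and for ENSRNOG00000046864 they were 11.2 and 10.5 CPM.

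Dam 2268 had the smallest median response of the 3 dosed dams in both livers. The median over the 13 genes of the log2 ratio to the control mean was 1.33 in dam 2268, 1.64 in dam 2269 and 1.72 in dam 2270 for fetal liver. For maternal liver the medians were 0.54, 1.07 and 1.11 in the same dams. Dam 2268 was the lowest of the dosed dams for 9 of the 13 genes in fetal and for 9 in maternal liver. The same count over all genes tested was not made, so these counts are description only. The 3 near-copies, counted separately here, were lowest in dam 2268 in fetal liver but highest in that dam in maternal liver. Fetal controls had medians of -0.32 to 0.17, and maternal controls 0.06 to 0.26 except dam 2263 at -0.72. Because the 13 genes were selected on these fetal libraries, the dosed fetal medians are favoured over the controls and over the maternal medians.

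**Figure D4:**
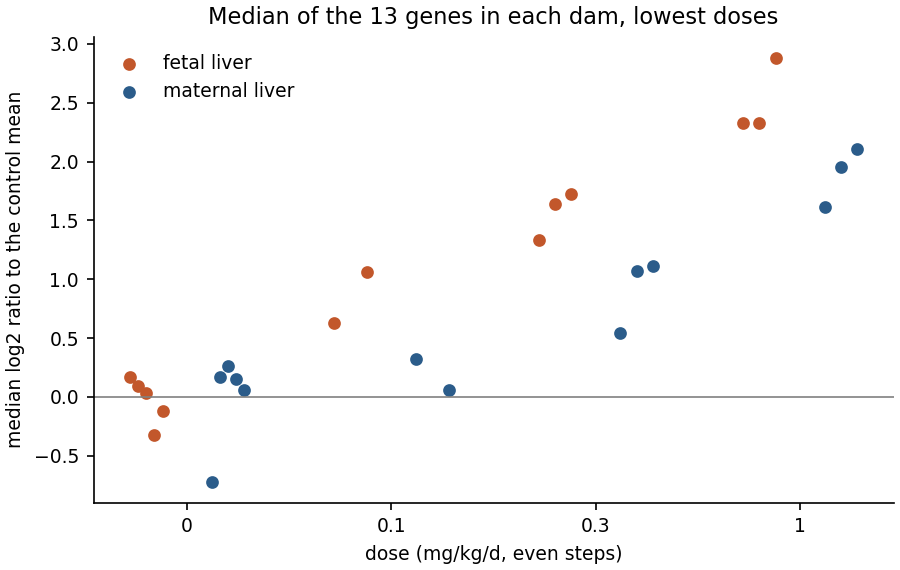
Median over the 13 genes of the log2 ratio to the control mean (vertical axis), 1 point per dam and liver, at 0, 0.1, 0.3 and 1 mg/kg/d (horizontal axis, even steps). The fetal points at 0.3 mg/kg/d lie at 1.33 to 1.72, above the maternal points at 0.54 to 1.11 and above all controls, the lowest of which is maternal dam 2263 at -0.72. The 13 genes were selected for a rise in these fetal libraries, which by itself favours higher fetal points at 0.3 mg/kg/d.

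The values of the 13 genes at the higher PFO5DoA doses place the 0.3 mg/kg/d values on a scale. These comparisons share the control dams and are set side by side without a test. In fetal liver the median log2 fold change of the 13 was 1.54 at 0.3 mg/kg/d, 2.58 at 1, 2.95 at 3, 3.60 at 10 and 3.56 at 30 mg/kg/d. In maternal liver it was 1.04, 2.16, 3.14, 3.72 and 3.79 at the same doses. The 13 genes were selected on the fetal values at 0.3 mg/kg/d, which favours the fetal median at that dose, so the medians do not rank the livers.

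The range over the 13 genes was broad at every dose. It ran from 1.03 to 3.20 in fetal liver at 0.3 mg/kg/d and from 2.16 to 6.34 at 30 mg/kg/d. In maternal liver it ran from 0.11 to 1.57 at 0.3 mg/kg/d and from 3.26 to 9.44 at 30 mg/kg/d. The maternal values at 0.3 mg/kg/d all lay below the lowest maternal value at 30 mg/kg/d.

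For ENSRNOG00000055221 the fetal level was 363 to 592 CPM at 1 mg/kg/d, 666 to 811 at 3, 730 to 1086 at 10 and 549 to 860 at 30 mg/kg/d. The maternal level was 26.6 to 118 CPM at 1 mg/kg/d, 322 to 714 at 3, 667 to 922 at 10 and 943 to 1527 at 30 mg/kg/d. Every fetal library already lay above every maternal one at 0 mg/kg/d, with 5.55 to 15 CPM against 0.984 to 2.02 CPM. The same order held at 0.3 and 1 mg/kg/d. At 3 and 10 mg/kg/d the ranges overlapped, and at 30 mg/kg/d every maternal library lay above every fetal one. Each liver was scaled on its own libraries, and the order at 0.3 and 1 mg/kg/d was present without dose. These levels therefore do not rank the responses of the livers. For ENSRNOG00000046864 the fetal level was 37.2 to 102 CPM at 1 mg/kg/d and 50.6 to 70.3 at 30 mg/kg/d, ranges that the higher 2 of the 0.3 mg/kg/d libraries reach at 1 mg/kg/d and 1 of them at 30 mg/kg/d. The maternal level of that gene was 26.6 to 114 CPM at 1 mg/kg/d, which overlaps its values at 0.3 mg/kg/d, and 224 to 251 CPM at 30 mg/kg/d, which does not.

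**Figure D5:**
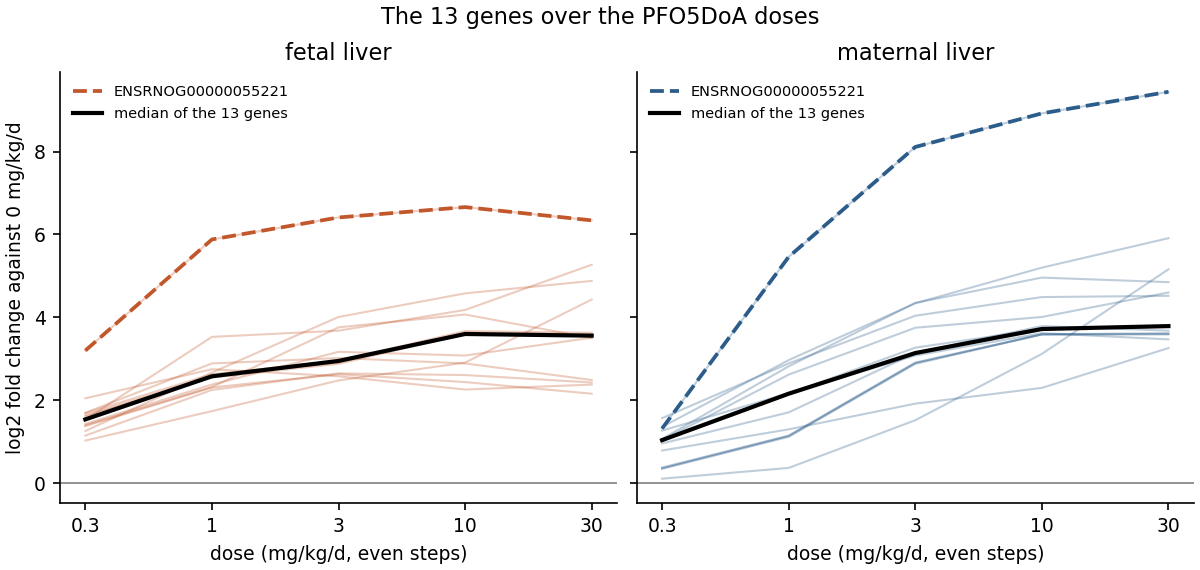
Log2 fold change against 0 mg/kg/d (vertical axis) of the 13 genes at 0.3, 1, 3, 10 and 30 mg/kg/d (horizontal axis, even steps), fetal and maternal liver in separate panels, with ENSRNOG00000055221 dashed and the median of the 13 in black. The fetal median goes from 1.54 at 0.3 to 3.56 at 30 mg/kg/d and the maternal one from 1.04 to 3.79, and all doses share the same control dams.

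No gene fell in either liver, and 2 genes with lower values at 0.3 mg/kg/d show what the test did not call. They were chosen after their values were seen, as the genes of lowest p among those lower in each liver with a mean of at least 5 CPM. ENSRNOG00000049681 measured 26.6, 17.5, 16.4, 19.3 and 19.8 CPM in the maternal controls and 12.8, 10.6 and 8.90 CPM in dams 2268, 2269 and 2270. The groups did not overlap, with means of 19.9 ± 4.01 CPM (SD, n = 5) and 10.8 ± 1.95 CPM (SD, n = 3) and a log2 fold change of -0.90 (standard error 0.22, edgeR adjusted p = 0.483). In fetal liver its log2 fold change was -0.08, with means of 32.6 CPM at 0 and 31.1 CPM at 0.3 mg/kg/d.

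ENSRNOG00000021106 was the corresponding gene of the fetal liver. It measured 9.58, 8.81, 7.11, 8.05 and 8.68 CPM in the fetal controls and 5.87, 5.37 and 4.83 CPM in dams 2268, 2269 and 2270. The means were 8.44 ± 0.924 CPM (SD, n = 5) and 5.35 ± 0.520 CPM (SD, n = 3), without overlap, and the log2 fold change of -0.67 (standard error 0.21) did not pass edgeR's test (adjusted p = 0.969). In maternal liver its log2 fold change was -0.29, with a 95% interval of -0.89 to 0.32.

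The number of dams limited what could be seen. The median standard error of a log2 fold change was 0.28 in maternal and 0.26 in fetal liver. The 95% interval lay within 2-fold in both directions for 6815 maternal genes (64.2%) and 8417 fetal genes (73.1%), so that for these a larger change lies outside the interval. For the rest a change of 2-fold or more was not excluded by the interval, and a gene that did not pass is not shown to be unchanged.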

How the data were processed

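TempO-Seq probes were counted in maternal and fetal liver RNA. Per the labels' protocols the panel holds 22253 probes for 20924 genes. The authors deposited 1 estimated count for each gene in each library, without normalization, and 12.2% of the values had decimals. Per the submitters' processing notes the build was mRatBN7.2, and the tools listed, without their roles, are STAR 2.7.8a, Partek, R and DESeq2. The deposited expected counts were rounded to whole numbers. All columns were mapped to dams through the dam number that opens the column name (0 unmapped), and life stage was assigned as described above, following the rule that defines the comparison.

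Each liver was fitted with edgeR 4.0.16 in R 4.3.3 over the dams at 0, 0.3, 1, 3, 10 and 30 mg/kg/d (23 maternal and 22 fetal libraries), with TMM scaling, genes kept by filterByExpr on the dose groups, a robust glmQLFit after estimateDisp, glmQLFTest of 0.3 against 0 mg/kg/d, and Benjamini-Hochberg adjustment over all genes tested. The difference between livers was the stage by dose contrast over 22 dams with the dam as a block. The tests left out the 2 dams at 0.1 mg/kg/d and control dam 2279, whose fetal library had 45504 counts. A gene was to be named if its adjusted p was under 0.05, its mean reached 5 CPM in either group and every dosed dam deviated from the control mean in the same direction, up to 15 rises and 10 falls, and all 13 fetal rises met this rule. With identifiers alone, 2 rises are printed, and the 35 gene lists (491 symbols) could not be looked up. Near-copies were genes whose log2 counts correlated at r above 0.999 over libraries. They were sought among genes with a mean of at least 50 counts that were counted in every library. The dam ratios used a pseudocount of 0.5. Standard errors of log2 fold changes were taken as the absolute log2 fold change divided by the square root of edgeR's F statistic. Intervals are 95% and rest on the spread estimated in the fit they belong to.

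Library pairs within a group differed by more than counting noise (chi-square per degree of freedom 17.8 or above, computed on genes whose counts summed to 20 or more), and no library was treated as a repeat of another. Only the edgeR fits of each liver and of the difference between livers were also tested on simulated data. Alternatives were DESeq2 1.42.0, another scaling (RLE), no filter, only 0.3 and 0 mg/kg/d, the 0.1 mg/kg/d dams kept, dam 2279 kept, the run of dam numbers, the replicate number as a block, a minimum fold of 1.5, the difference between livers without the dam block, and each dam left out. The sum of near-copies was added after the data were seen. The samples, gene lists and tests were chosen with earlier results of these data known.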

Additional observations from a re-analysis of the deposited data

Results flagged for a closer look

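The 2 dams at 0.1 mg/kg/d were outside the tests. In fetal liver ENSRNOG00000055221 measured 63.2 and 97.3 CPM in these dams, both above every fetal control, of which the highest had 15 CPM, and within the range of the 0.3 mg/kg/d dams (35.0 to 106 CPM). In maternal liver the same dams had 0.836 and 0.723 CPM, below every maternal control. These are 9 and 8 counts, where the maternal controls had 11 to 19, so the gap rests on few counts. Of the 13 genes that rose in fetal liver at 0.3 mg/kg/d, 9 were above every control in both dams at 0.1 mg/kg/d in fetal liver and 1 in maternal liver. Over all genes tested the same held for 11.6% in fetal and 3.51% in maternal liver. The 13 genes had been selected against the same control libraries, so the fetal count is description only, and the maternal count of 1 says nothing of the 13 genes. The difference between the livers at 0.1 mg/kg/d was not tested. Over the 13 genes the median log2 ratio to the control mean at 0.1 mg/kg/d was 0.63 and 1.06 in fetal and 0.32 and 0.06 in maternal liver.

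In the maternal controls, dam 2263 lay below the other 4 in 2 measures. Its level of ENSRNOG00000055221 was 0.984 CPM (11 counts), where the others had 1.72 to 2.02 CPM (16 to 19 counts). Its median log2 ratio over the 13 genes was -0.72, where the others had 0.06 to 0.26. The measures are not separate, since ENSRNOG00000055221 is 1 of the 13 genes. Chance marks about 1 in 20 groups in this way, and 30 groups were looked at. The part of this library in the maternal values was not tested beyond leaving it out, which lowered the median maternal log2 fold change of the 13 genes from 1.04 to 0.88. Leaving out dosed dam 2269 or 2270 lowered it further, to 0.72 and 0.75.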

How the results depend on the processing

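The fetal count of 13 rises was 18 with DESeq2, 13 with RLE scaling, without the filter and with the 0.1 mg/kg/d dams kept, and 11 with the run of dam numbers as a covariate. It was 7 with only 0.3 and 0 mg/kg/d in the fit, 4 within the first run of dam numbers and 2 with a minimum fold of 1.5. With each dam left out it was 6 to 11. The maternal count of 0 became 4 with DESeq2, which adjusted over 7732 maternal genes, and was 0 to 1 with each dam left out. The count of 0 for the difference between livers became 44 without the filter and 1 with DESeq2, and was 0 without the dam block, with RLE scaling, with only 0.3 and 0 mg/kg/d and with each dam left out. All calls for dose were rises in every setting. Fewer dams and fewer doses enter several of these fits, and the cause of each change was not tested otherwise.

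The replicate block on the title numbers gave 8 fetal and 0 maternal calls, 7 of the 8 among the 13. Same-numbered samples had deviations correlating at -0.06, -0.06 and -0.21 in maternal and -0.28, -0.08 and 0.03 in fetal liver, and none matched its own number best. Within a liver, each title number belongs to a different dam at each dose. So few values cannot decide whether the numbers mark another shared source, which was not tested otherwise.

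For the printed genes no direction reversed. In fetal liver ENSRNOG00000055221 and ENSRNOG00000046864 lost the call in 1 of 18 alternatives each, the first run of dams. In maternal liver ENSRNOG00000046864 passed in 1 of 19, DESeq2. Keeping dam 2279 was not run for fetal liver, where its library had 45504 counts. Totals of 7740151 to 14074000 counts leave genes of about 1 CPM with few counts (11 in 1 maternal control for ENSRNOG00000055221).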
